A study of Mus musculus with 12 samples.

Results

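The clustered protocadherins are cell-surface adhesion proteins of the cadherin superfamily, encoded by 3 neighbouring gene arrays named alpha, beta and gamma. All genes whose symbol begins with Pcdha, Pcdhb or Pcdhg were taken, which gave 56 of the 25834 genes listed at every age: 14 alpha, 22 beta and 20 gamma genes. The alpha cluster holds 12 alternate isoforms and the C-type isoforms Pcdhac1 and Pcdhac2. The 20 listed gamma genes are 11 A-type and 6 B-type isoforms and the 3 C-type isoforms Pcdhgc3, Pcdhgc4 and Pcdhgc5. Any isoform not listed at every age is left out of the counts, sums and shares below. After a filter on low values 52 of the 56 were tested (11 alpha, 21 beta, 20 gamma). Pcdha4, Pcdha8, Pcdha11 and Pcdhb1 were not, and 48 of the 52 reached the minimum level in all 4 libraries at the oldest age.

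Each alpha or gamma isoform begins with its own variable exon, which has its own promoter and encodes the extracellular and membrane-spanning parts, and is spliced to constant exons shared by its cluster, which encode a common cytoplasmic end. Beta genes consist of a variable exon alone. Single neurons choose a few of the alternate alpha, beta and gamma A and B promoters, a choice that involves the DNA-binding protein CTCF, cohesin and DNA methylation, whereas C-type isoforms are used more uniformly. The proteins bind copies of themselves on other membranes and act in self-avoidance of neurites, dendrite growth and neuron survival.

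The nuclei came from forebrain cortex of male mouse pups on the day of birth (P0) and at 14 and 28 days of age (P14, P28). Each age has 4 libraries, which the labels call biological replicates. Every animal had the genotype CAG-Sun1/sfGFP +/-; NEX-Cre +/-, so the groups differ by age and there is no group without the tag or the Cre. No label used here says whether the ages were prepared or sequenced together. Any such difference cannot be told apart from age. Sun1/sfGFP is a fluorescent protein at the nuclear envelope, and NEX-Cre switches it on in cells with a history of Neurod6 (NEX) promoter activity, mostly excitatory neurons of cortex and hippocampus. Tagged nuclei were pulled down by INTACT, an immunopurification of nuclei, and polyadenylated RNA was sequenced after a strand-keeping library preparation. P0 replicate 1 and P28 replicate 4 carry the word merged in their labels. In these bulk libraries fewer cells of a type and less RNA per cell cannot be told apart.

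The P0 libraries held 13195973 to 16599217 recovered reads, the P14 libraries 25486861 to 33611769 and the P28 libraries 21569262 to 31215435. Of these the 56 genes together took 3391 to 14208 a library. Levels are given as scaled CPM, which are reads per 1000000 over the shared genes after scaling the 12 libraries to each other. P14 replicate 2 stood apart: its mean correlation with the other libraries of its age, across genes, was 0.951 against at least 0.976 for the other 11, so counts of members at P14, and the member values that it moves by more than 1.5 times, are given with and without it. All 12 excitatory neuron markers were detected in every library, with summed levels of 2054 to 2321 scaled CPM in the P0, 1635 to 2582 in the P14 and 2779 to 2901 in the P28 libraries. Of the 12, 1 rose and 7 fell from P0 to P14 (2 and 9 without P14 replicate 2), where 34.4% of all genes tested rose and 34.5% fell (36.5% and 36.8%). Markers of other cell types were also present. The 9 vascular markers summed to 899 to 1492 scaled CPM in the P0, 68.3 to 198 in the P14 and 40.7 to 83.9 in the P28 libraries, and 9 of 9 fell from P0 to P14. The 8 progenitor markers summed to 388 to 554, 44.3 to 106 and 27.4 to 49.9 at the same ages, and 7 of 8 fell. From P0 to P14, 9 of 9 oligodendrocyte markers rose, from sums of 90.0 to 100.4 up to sums of 972 to 2422, and so did 9 of 9 microglia markers, from 30.5 to 46.4 up to 56.1 to 109 scaled CPM. Of 9 astrocyte markers 5 rose and 1 fell (585 to 772, then 1483 to 2786), of 10 inhibitory neuron markers 2 rose and 4 fell (406 to 424, then 225 to 362; 4 and 4 without P14 replicate 2), and of 6 oligodendrocyte precursor markers 2 rose and 2 fell (147 to 173, then 112 to 217; 3 and 2). The shares of the last 2 lists are near those of all genes. Pvalb, Mobp and Opalin were at 0 in at least 1 library, and no other marker was. The part of these other cells in the protocadherin values was not tested.

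All 3 clusters stood lower at P14 and P28 than at P0, the gamma cluster most. Summed over its 20 listed genes, the gamma cluster was at 316, 464, 519 and 597 scaled CPM in P0 replicates 1 to 4, at 134, 16.7, 139.9 and 80.0 in P14 replicates 1 to 4, and at 159, 139, 121 and 148 in P28 replicates 1 to 4. Every P14 and P28 library lay below every P0 library. Its mean was 474 ± 119 (SD, n = 4) at P0, 92.5 ± 57.2 at P14 (118 ± 32.9, n = 3, without replicate 2) and 142 ± 16.2 at P28, so the P0 mean was 3.34 times the P28 mean.

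Beta genes summed to 192, 271, 287 and 275 scaled CPM at P0, to 116, 74.8, 133 and 114 at P14, and to 145, 132, 131 and 135 at P28. Again no P14 or P28 library reached the lowest P0 library, and the P0 mean was 1.89 times the P28 mean (257 ± 43.4 against 136 ± 6.43, SD, n = 4). The 14 alpha genes summed to 86.0, 140, 161 and 190 at P0, to 86.6, 5.49, 91.5 and 45.5 at P14, and to 86.0, 74.3, 69.6 and 74.1 at P28. Here the groups overlapped, since P0 replicate 1 lay within the range of the older libraries. P0 replicate 1, one of the merged libraries, was below the other P0 libraries in each cluster, at 52.6% of their mean for alpha, 69.2% for beta and 60.0% for gamma. These sums carry no test.

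**Figure D1:**
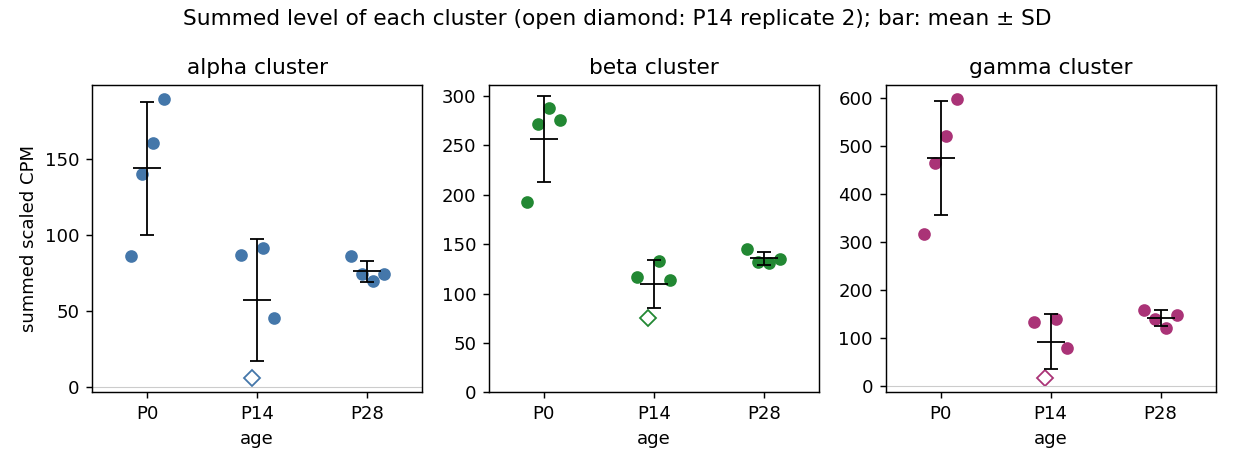
Summed scaled CPM (vertical axis, linear) of the alpha, beta and gamma clusters in each of the 12 libraries at P0, P14 and P28, with mean ± SD of 4 libraries in black and P14 replicate 2 as an open diamond. The P0 libraries of beta (192 to 287) and gamma (316 to 597) lie above all older libraries, whereas alpha overlaps, and P14 replicate 2 is the lowest P14 point in each panel.

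From P0 to P14, 44 of the 52 tested members fell and 0 rose by limma at an adjusted p of 0.05, where over all 15734 genes tested 34.5% fell and 34.4% rose. Their median log2 fold change was -1.89, against 0.01 for all genes tested. Without P14 replicate 2, 43 fell and 1 rose (36.8% and 36.5% of all genes). With no filter on low values, all 56 members were tested and 45 fell and 0 rose (23.7% and 25.4% of all genes tested that way). By cluster, 8 of 11 tested alpha members fell (median -1.86), 17 of 21 beta members (median -1.27) and 19 of 20 gamma members (median -2.78). Without P14 replicate 2 the counts were 8, 16 and 19 and the medians -1.27, -1.01 and -2.24. For 41 of all 56 members, the untested Pcdha8 among them, all 4 P14 libraries lay below all 4 P0 libraries. For 0 they lay above, against 30.2% (below) and 29.2% (above) of all genes tested. Leaving out P14 replicate 2 gave 42 members below and 1, Pcdhgc5, above. The share over all genes was not worked out for that setting. Beside the 0 members that rose by limma, edgeR and DESeq2 on the recovered reads called 1 each, Pcdhgc5 (36.3% and 35.8% of all genes rose by these tools).

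From P14 to P28 few members passed the test. By limma 2 of 52 rose and 0 fell, with 9.22% and 9.09% of all genes tested as background. Both were beta genes, Pcdhb3 and Pcdhb20. The median log2 fold change of the members was 0.45, against -0.01 for all genes tested. Without P14 replicate 2 these medians were 0.12 and 0.00. Without P14 replicate 2, 3 rose (12.6% of all genes) and 0 fell (13.3%), the third being Pcdhgc5. With no filter, 2 of 56 rose (5.09% of all genes) and 0 fell (4.89%). Without P14 replicate 3, 4 rose, and without P28 replicate 1, 1 rose, since Pcdhb3 then missed the threshold (adjusted p = 0.0671).

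Between P0 and P28, 40 of 52 fell and 1 rose, where 35.6% of all genes tested fell and 35.7% rose, and the member median was -1.35 against 0.00. Without P14 replicate 2, which enters this comparison only through the shared estimate of the spread, 43 fell and 1 rose (39% and 39.4%). With no filter, 41 of 56 fell and 1 rose (25.2% and 26.3%). In 41 of all 56 members, the untested Pcdha8 among them, all P28 libraries lay below all P0 libraries. In 1 they lay above, against 35.7% (below) and 35.6% (above) of all genes tested. By cluster 6 alpha members fell (median -1.29), 15 beta members (median -0.80) and 19 gamma members (median -2.23). These counts were 8, 16 and 19 without P14 replicate 2, with the same medians. The single member that rose was Pcdhgc5. The 3 age comparisons share libraries, so their values are set side by side and not counted as separate evidence.

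**Figure D2:**
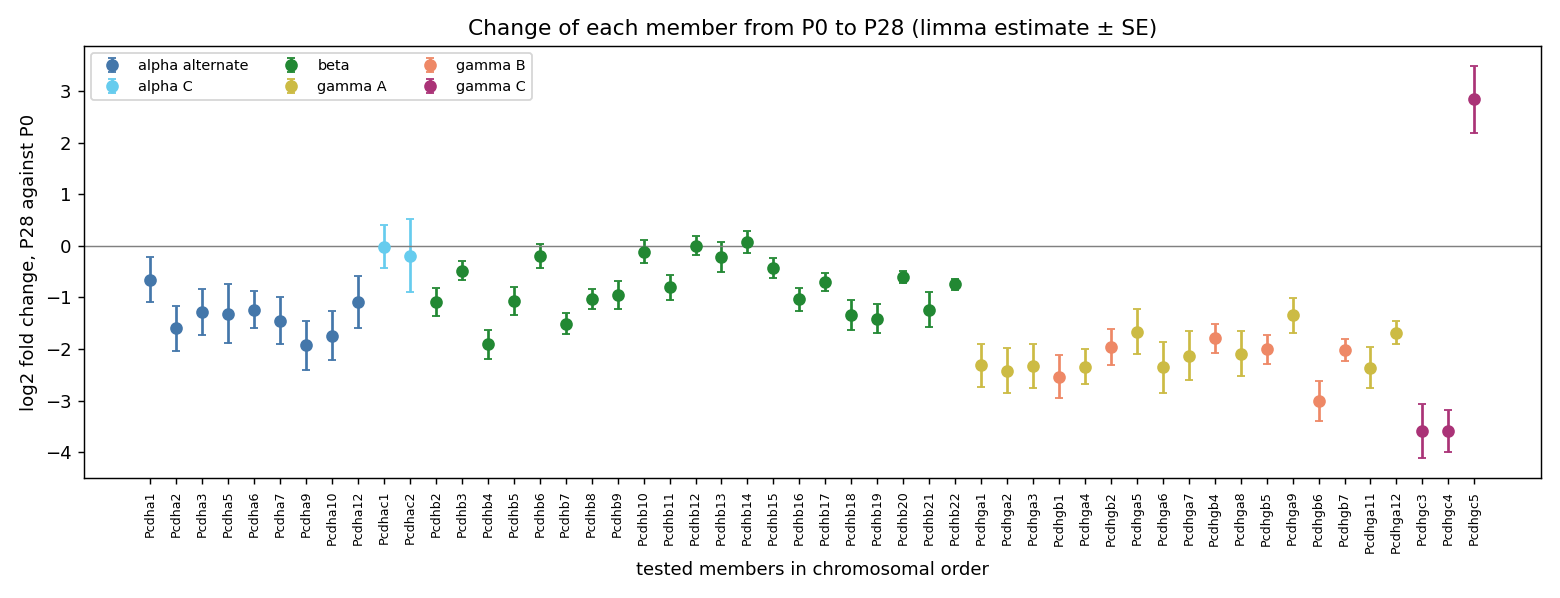
Log2 fold change of P28 against P0 (vertical axis) with its standard error for each of the 52 tested members in chromosomal order (horizontal axis), coloured by isoform class. Gamma A and B members lie between -3.01 and -1.35, beta members between -1.91 and 0.07, the alpha C-types close to 0, and the 3 gamma C-types at the right end at -3.59, -3.59 and 2.84.

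On chromosome 18 of GRCm38.p6, in RefSeq coordinates, the alpha genes lie within chr18:36930285-37188897, the beta genes within chr18:37264998-37521419 and the gamma genes within chr18:37661775-37841873. All 56 matched RefSeq by symbol. Beta genes span 2340 to 5271 bp. Alpha genes span 43986 to 257373 bp and gamma genes 22328 to 180096 bp, because each reaches from its own variable exon to the shared constant exons. These spans overlap, and the variable exons of later genes lie inside the spans of earlier ones. No label or header says how the authors assigned reads from shared exons or introns, so the split of reads among isoforms of the alpha and gamma clusters is uncertain, while beta genes do not share exons.

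The gamma C-types, which lie at the 3′ end of the array next to the constant exons, moved in opposite directions. Pcdhgc3 (chr18:37806410-37841873), an isoform known for its part in dendrite branching, was at 59.1, 81.7, 95.1 and 101 scaled CPM in the P0 libraries, at 12.8, 0.92, 11.5 and 6.44 at P14, and at 6.54, 5.65, 5.58 and 8.07 at P28. All 8 older libraries lay below the lowest P0 library. The log2 fold change was -3.72 ± 0.53 (SE) from P0 to P14 (adjusted p = 3.14e-05), or -3.00 ± 0.22 without P14 replicate 2 (adjusted p = 1.77e-08), and -3.59 ± 0.53 from P0 to P28 (adjusted p = 3.78e-05).

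Pcdhgc4 (chr18:37815079-37841873), known to be needed for the survival of cortical interneurons, starts 8669 bp downstream of Pcdhgc3. Its levels were 51.0, 80.9, 85.3 and 102 scaled CPM at P0, 10.7, 2.09, 12.1 and 5.75 at P14, and 7.77, 4.81, 5.62 and 6.06 at P28. As for Pcdhgc3, no older library came near the lowest P0 library. It fell by 3.49 ± 0.40 on the log2 scale to P14 (adjusted p = 4.15e-06; 3.02 ± 0.25 without P14 replicate 2) and by 3.59 ± 0.40 to P28 (adjusted p = 2.61e-06). The P0 mean was 13.2 times the P28 mean, against 13.0 times for Pcdhgc3.

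Pcdhgc5 (chr18:37819546-37841873) starts 4467 bp further downstream and is known to bind GABA-A receptors. It was at 6.74, 10.3, 10.1 and 11.7 scaled CPM at P0, at 50.4, 2.75, 49.9 and 30.5 at P14, and at 81.7, 69.4, 59.5 and 75.3 at P28. The P28 libraries all lay above every P0 and P14 library, and at P14 replicate 2 was below all P0 libraries while the other 3 were above them. It rose by 2.84 ± 0.66 on the log2 scale from P0 to P28 (adjusted p = 0.00159), with means of 9.69 ± 2.09 and 71.5 ± 9.42 (SD, n = 4), a ratio of 7.38.

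The timing of the Pcdhgc5 rise depended on P14 replicate 2. With all 12 libraries the log2 fold change from P0 to P14 was 1.17 ± 0.66 (adjusted p = 0.127) and from P14 to P28 1.67 ± 0.66 (adjusted p = 0.0946). Without that library they were 2.10 ± 0.19 (adjusted p = 1.72e-07) and 0.73 ± 0.19 (adjusted p = 0.0125). On the recovered reads of all 12 libraries the P0 to P14 rise passed with edgeR (adjusted p = 0.0125) and with DESeq2 (adjusted p = 0.00774).

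**Figure D3:**
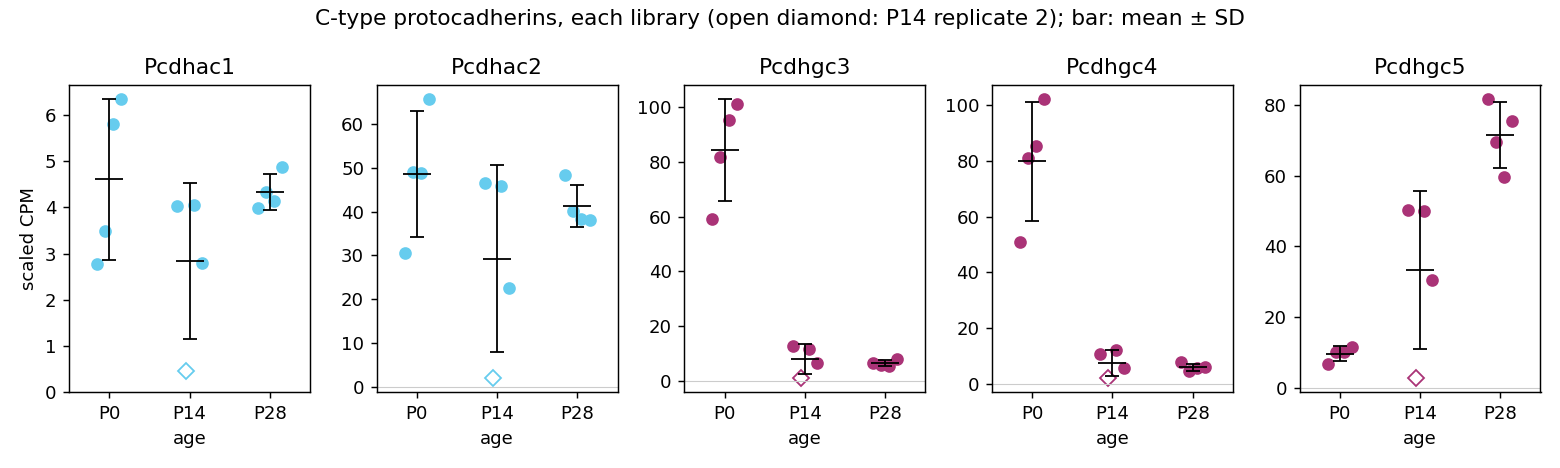
Scaled CPM (vertical axes, linear, each with its own range) of the 5 C-type isoforms in each library at P0, P14 and P28, with mean ± SD of 4 libraries in black and P14 replicate 2 as an open diamond. Pcdhgc3 and Pcdhgc4 drop between P0 and P14, Pcdhgc5 climbs to 59.5 to 81.7 at P28, and Pcdhac1 and Pcdhac2 overlap between ages.

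Shares within a cluster do not depend on the scaling between libraries. Of the reads of the 3 gamma C-types, Pcdhgc5 made up 5.61% ± 0.31 (SD, n = 4) at P0, 63.8% ± 10.8 at P14 and 85.1% ± 1.28 at P28. At P14 the share was 68.2%, 47.8%, 67.9% and 71.4% in replicates 1 to 4, so replicate 2 was lowest but still far above all P0 libraries (highest 5.95%). In that library 96 of 201 gamma C-type reads were from Pcdhgc5, a Wilson 95% interval of 41.0 to 54.6% that covers counting error only. Without it the P14 mean was 69.2% ± 1.96 (n = 3). No test was made of these shares.

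Of all gamma reads, Pcdhgc5 took 2.06% ± 0.14 at P0, 32.0% ± 10.4 at P14 (37.2% ± 1.30 without replicate 2) and 50.3% ± 0.97 at P28. Over the same ages Pcdhgc3 went from 17.9% to 7.84% to 4.56% and Pcdhgc4 from 16.8% to 9.09% to 4.27% of gamma reads. The 11 A-type genes held 46.1% ± 0.85 at P0, 40.0% ± 5.88 at P14 and 31.6% ± 1.33 at P28, and the 6 B-type genes 17.2% ± 1.22, 11.1% ± 3.99 and 9.31% ± 0.50. The 3 C-types together thus held 36.7% ± 0.51 at P0, 48.9% ± 9.76 at P14 (53.7% ± 1.45 without replicate 2) and 59.1% ± 1.53 at P28, while their make-up turned over from Pcdhgc3 and Pcdhgc4 to Pcdhgc5.

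**Figure D4:**
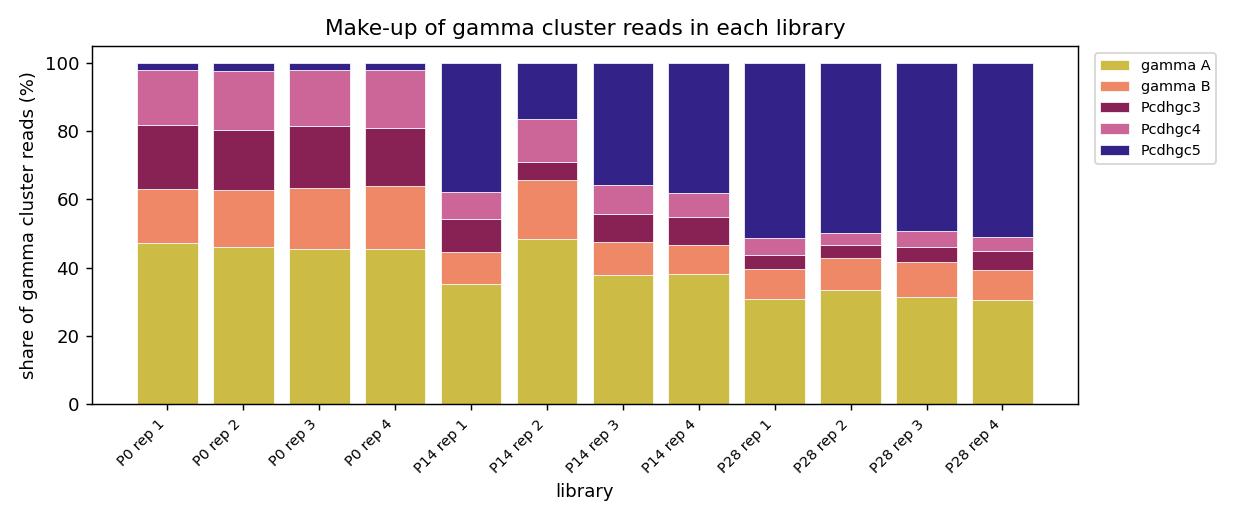
Share of gamma cluster reads in percent (vertical axis, stacked from 0) taken by the A-type genes, the B-type genes, Pcdhgc3, Pcdhgc4 and Pcdhgc5 in each of the 12 libraries. Pcdhgc5 fills about the top 2.06% of the P0 bars and 50.3% of the P28 bars on average, and the bar of P14 replicate 2 has a smaller Pcdhgc5 part (16.4%) than those of the other P14 libraries.

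The listed gamma A-type and B-type isoforms were lower at both later ages without exception: all 11 and all 6 fell from P0 to P14 and again when P28 was compared with P0. From P0 to P14 their log2 fold changes ran from -3.28 to -1.99 for A-types (median -2.75) and from -3.55 to -2.35 for B-types (median -2.63). Without P14 replicate 2 they ran from -2.75 to -1.74 (median -2.20) and from -3.09 to -2.12 (median -2.40). For P28 against P0 they ran from -2.43 to -1.35 and from -3.01 to -1.79. From P14 to P28 none passed the test with all 12 libraries. The estimates there were 0.17 to 0.93 for A-types and 0.34 to 0.92 for B-types, and without P14 replicate 2 they were -0.32 to 0.39 and 0.09 to 0.54, so the common sign of the A-types rested on that library.

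The largest fall among them was that of Pcdhgb6 (chr18:37742094-37841873). It was at 19.3, 25.7, 33.6 and 42.5 scaled CPM at P0, at 3.57, 0.49, 4.06 and 1.73 at P14 and at 3.55, 3.00, 2.96 and 3.19 at P28. The older libraries did not overlap with P0. Its log2 fold change was -3.55 ± 0.39 (SE) to P14 (adjusted p = 3.2e-06) and -3.01 ± 0.39 to P28 (adjusted p = 1.27e-05).

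Pcdhga2, the A-type with the largest fall to P14, had means of 25.6 ± 8.35, 2.58 ± 1.72 and 4.16 ± 0.45 scaled CPM at P0, P14 and P28 (SD, n = 4). Pcdhga3, the A-type with the highest count-based level, was at 23.8, 37.9, 35.3 and 40.5 at P0, 6.39, 0.94, 8.11 and 4.53 at P14, and 5.54, 6.77, 5.91 and 7.12 at P28, with no overlap between P0 and later ages. Pcdhga12, the last A-type gene before the C-types, changed less, from 24.2 ± 5.67 to 5.78 ± 1.90 and 7.08 ± 1.08, a log2 fold change of -1.68 ± 0.23 for P28 against P0 (adjusted p = 1.93e-05). Pcdhgb1 had means of 15.1 ± 5.63, 1.38 ± 0.91 and 2.06 ± 0.53 scaled CPM.

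In the alpha cluster most alternate isoforms fell, the C-types did not pass the test, and the difference between them was not itself tested. Of the 12 alternate isoforms 9 were tested, and 8 of them fell from P0 to P14, Pcdha1 alone not passing (-0.74 ± 0.43, adjusted p = 0.143). Pcdha9 (chr18:36997880-37187657) was at 12.3, 16.3, 17.1 and 21.1 scaled CPM at P0, at 5.17, 0.40, 5.91 and 3.78 at P14 and at 3.93, 4.57, 3.51 and 3.83 at P28. P0 lay above both later ages without overlap, with a log2 fold change of -2.30 ± 0.47 to P14 (adjusted p = 0.000667), or -1.66 ± 0.18 without P14 replicate 2 (adjusted p = 9.8e-07), and -1.93 ± 0.47 to P28 (adjusted p = 0.00228).

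Pcdha12 was at 8.01, 15.5, 19.8 and 17.5 scaled CPM at P0, at 5.59, 0.52, 7.54 and 2.84 at P14 and at 6.54, 5.69, 6.38 and 7.63 at P28. P0 replicate 1 was close to the highest later libraries. It fell to P14 (-2.06 ± 0.50, adjusted p = 0.0024; -1.45 ± 0.30 without P14 replicate 2), and against P28 the estimate was -1.09 ± 0.50 (adjusted p = 0.066; 0.00231 without P14 replicate 2). The Pcdha12 difference between P28 and P0 passed in 7 of 25 alternatives. Pcdha5, with an estimate of -1.31 ± 0.57, missed the threshold with all libraries (adjusted p = 0.0532), passed without P14 replicate 2 (adjusted p = 0.00227) and passed in 8 of 25 alternatives in all.

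Pcdhac2 (chr18:37143678-37187663), known for its part in the spacing of serotonergic axons, was at 30.5, 49.1, 49.0 and 65.8 scaled CPM at P0, at 46.7, 1.92, 45.9 and 22.6 at P14 and at 48.3, 40.2, 38.4 and 38.1 at P28. The ages overlapped. P28 against P0 gave -0.19 with a 95% interval of -1.71 to 1.33, which narrowed to -0.70 to 0.32 without P14 replicate 2. The estimate for P14 against P0 was -1.34 ± 0.71 (adjusted p = 0.106), and -0.36 ± 0.25 (adjusted p = 0.218) without that library; it passed when P14 replicate 1 or 3 was left out instead (-1.79 and -1.78).

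Pcdhac1 was at 2.77, 3.50, 5.82 and 6.36 scaled CPM at P0, 4.03, 0.46, 4.06 and 2.80 at P14 and 3.98, 4.33, 4.14 and 4.88 at P28, and P28 against P0 gave -0.02 with a 95% interval of -0.92 to 0.89. The P28 libraries lay within the P0 range. Together the alpha C-types took 37.1% ± 2.08 of alpha reads at P0, 53.0% ± 6.74 at P14 (56.3% ± 2.03 without replicate 2) and 60.0% ± 1.38 at P28 (SD, n = 4, no test). In levels the alternate isoforms summed to 91.0 ± 28.4 scaled CPM at P0 and 30.4 ± 2.81 at P28, and the C-types to 53.2 ± 15.9 and 45.6 ± 4.53.

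Beta genes can be compared per kilobase of RefSeq span, since they have no introns in the coding part and share no exons. Pcdhb17, Pcdhb22 and Pcdhb20, which lie near the gamma-facing end of the beta array, had the highest levels over the 12 libraries, at 6.25, 6.21 and 6.14 scaled CPM per kilobase. Pcdhb18, Pcdhb19 and Pcdhb21, which lie among them, were lower, at 1.31, 3.25 and 1.85. Pcdhb1, the first gene of the array, had the lowest, at 0.0245, with 0 to 3 reads per library, and Pcdhb2 next to it was at 0.50.

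Beta members differed in how much they changed. Pcdhb19 (chr18:37496998-37501711) was at 19.9, 30.9, 34.5 and 28.1 scaled CPM at P0, at 8.97, 3.15, 10.4 and 7.30 at P14 and at 10.2, 9.70, 11.2 and 9.51 at P28, without overlap between P0 and later ages. Its log2 fold change to P14 was -1.94 ± 0.28 (adjusted p = 3.57e-05), the largest fall of the beta genes with all 12 libraries. Without P14 replicate 2 it was -1.61 and that of Pcdhb4 was -1.66. Pcdhb4 had the largest fall for P28 against P0, -1.91 ± 0.28 (adjusted p = 3.63e-05), with means of 6.57 ± 1.86 and 1.37 ± 0.40 scaled CPM.

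Pcdhb20 (chr18:37504264-37507660) and Pcdhb3 (chr18:37300799-37304585) fell from P0 to P14 and rose from P14 to P28. Pcdhb20 was at 25.6, 30.7, 28.6 and 33.1 scaled CPM at P0, at 14.4, 12.4, 15.2 and 13.5 at P14 and at 20.5, 18.5, 19.3 and 18.4 at P28, so the 3 ages did not overlap. Its log2 fold changes were -1.06 ± 0.11 (adjusted p = 1.35e-06) and 0.46 ± 0.11 (adjusted p = 0.0119). Pcdhb3 was at 5.06, 6.49, 7.39 and 6.28 at P0, at 2.85, 1.77, 2.46 and 3.24 at P14 and at 5.26, 4.05, 4.10 and 4.02 at P28.

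For Pcdhb3 the P0 and P28 libraries touched, with P28 replicate 1 above P0 replicate 1, and both lay above P14. Its log2 fold changes were -1.16 ± 0.18 (adjusted p = 6.8e-05) and 0.67 ± 0.18 (adjusted p = 0.0211). Neither beta rise passed when the deposited values were compared across ages without rescaling (Pcdhb20 adjusted p = 0.0865). Pcdhb17 fell from 29.2 ± 5.17 to 14.5 ± 3.50 scaled CPM and was at 17.6 ± 1.60 at P28 (SD, n = 4).

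Pcdhb6, Pcdhb12, Pcdhb13 and Pcdhb14, named after their values were seen, did not pass the main test in any comparison. Under the alternatives Pcdhb6 passed in 2 of 24 from P0 to P14 and in 2 of 24 from P0 to P28. Pcdhb12 and Pcdhb13 each passed in 1 of 24 from P0 to P14, and Pcdhb14 in 0 of 25. Pcdhb12 was at 1.93, 1.68, 2.59 and 3.29 scaled CPM at P0, at 2.43, 3.03, 2.77 and 2.77 at P14 and at 2.18, 2.79, 2.03 and 2.30 at P28. The ages overlapped, and P28 against P0 gave 0.00 with a 95% interval of -0.39 to 0.40. For Pcdhb14 the same comparison gave 0.07 (-0.40 to 0.55), for Pcdhb13 -0.22 (-0.85 to 0.40) and for Pcdhb6 -0.20 (-0.72 to 0.32). These intervals leave out a change as large as the alpha and gamma medians given above. The interval of Pcdhb13 takes in the median of the beta cluster itself (-0.80), and those of Pcdhb6, Pcdhb12 and Pcdhb14 do not. The difference between genes was not itself tested.

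P14 replicate 2 was low in the alpha and gamma clusters and less so in the beta cluster. Its summed level was 7.37% of the mean of the other P14 libraries for alpha, 14.2% for gamma and 61.8% for beta. On the scale of log2(scaled CPM + 0.5) the median member difference was -2.24 for alpha, -1.94 for gamma and -0.77 for beta, where all genes tested had a median of -0.02 and a 5th to 95th percentile range of -1.19 to 1.06. Genes with a RefSeq span above 100 kb had a median of -0.23, those of 10 to 100 kb -0.03 and those below 10 kb 0.09 (92.0% of the genes tested had a span). P14 replicate 4 was also below replicates 1 and 3, at 51.1% of their mean for alpha, 58.5% for gamma and 91.5% for beta. Span, RNA quality and cell make-up as the source of these differences were not tested.

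**Figure D5:**
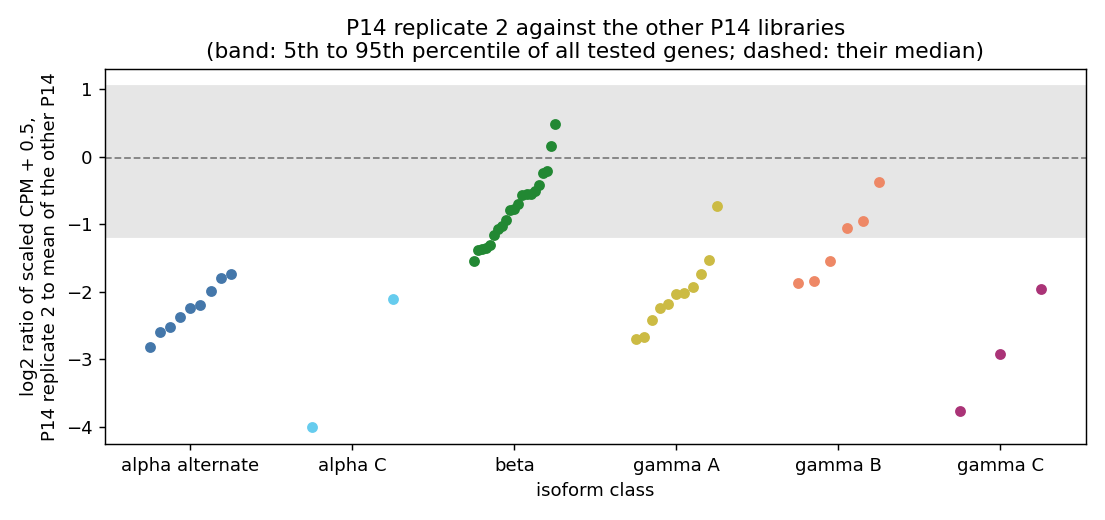
Log2 ratio of P14 replicate 2 to the mean of the other 3 P14 libraries, on scaled CPM plus 0.5 (vertical axis), for each of the 52 tested members by isoform class (horizontal axis; points are sorted within a class). The grey band spans the 5th to 95th percentile of all genes tested (-1.19 to 1.06) and the dashed line their median; alpha and most gamma points lie below the band, whereas beta points run from -1.55 to 0.49.

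Among genes that act on or beside the clusters, those for promoter choice and chromatin mostly fell. Of 19 such genes 15 fell and 1 rose from P0 to P14 (median -0.82), where 34.5% of all genes tested fell and 34.4% rose. For P28 against P0, 13 fell and 0 rose, where 35.6% and 35.7% of all genes did, and without P14 replicate 2 the counts were 14 and 1 (39% and 39.4%). Smc1a and Smc3, core subunits of the cohesin ring, fell from 210 ± 15.2 to 64.4 ± 6.02 scaled CPM (-1.70 ± 0.09, adjusted p = 3.01e-09) and from 140 ± 7.84 to 57.4 ± 0.42 (-1.27 ± 0.07, adjusted p = 6.15e-09). Named after their values were seen, Ctcf fell from 137 ± 4.50 to 69.0 ± 3.35, and Dnmt3a, a DNA methyltransferase, was the gene that rose, from 183 ± 14.7 to 336 ± 46.0 (0.87 ± 0.12, adjusted p = 1.6e-05).

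The protocadherins outside the clusters changed in both directions. Of 12 nonclustered protocadherins 1 rose and 5 fell from P0 to P14 (median -0.07; 34.4% and 34.5% of all genes), or 4 and 5 without P14 replicate 2 (36.5% and 36.8%). For P28 against P0, 3 rose and 6 fell, where 35.7% and 35.6% of all genes tested did. Pcdh12, known from endothelial cells, fell from 26.7 ± 8.12 to 1.02 ± 0.53 scaled CPM (-4.18 ± 0.27, adjusted p = 2.03e-08), and Pcdh18 from 41.3 ± 13.8 to 4.06 ± 1.31 (-3.17 ± 0.28, adjusted p = 3.29e-07). Both fell beside the vascular markers, whose part was not tested. Pcdh15 was the one that rose, chosen after its values were seen (27.6 ± 4.75 to 69.5 ± 2.80).

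Of 20 genes for protein partners and signalling 6 rose and 8 fell from P0 to P14 (median -0.13), shares near the 34.4% and 34.5% of all genes tested. Ptk2b, the kinase PYK2 that clustered protocadherins bind and inhibit, had means of 78.6 ± 9.41 and 269 ± 13.4 scaled CPM, a rise of 1.78 ± 0.09 (adjusted p = 1.71e-09). Marcks, an actin-linked substrate of protein kinase C, fell from 875 ± 74.7 to 282 ± 35.1 (-1.63 ± 0.10, adjusted p = 1.24e-08). Of 7 genes for proteolytic processing 1 rose and 4 fell (median -0.58). Adam10, the protease that sheds the extracellular part, was among those that fell, at -1.17 ± 0.14 (adjusted p = 4.53e-06). Of 10 classical cadherins 3 rose and 5 fell (median -0.56; 4 and 4 and a median of -0.31 without P14 replicate 2), with Cdh2 at -2.39 ± 0.26 (adjusted p = 2.66e-06) and Cdh4 at -2.35 ± 0.16 (adjusted p = 3.59e-08). For both lists the shares over all genes tested were 34.4% that rose and 34.5% that fell.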

How the data were processed

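Polyadenylated nuclear RNA of 12 libraries was analysed from 3 tables, 1 per age. The deposited unit is signal, a normalized read count: per the submitters' processing notes the authors used DESeq2 and build mm10, without versions, and each age was normalized on its own. The aligner, counter, counted strand and annotation: not given in the sources used here. To a tolerance of 0.05 reads, 100% of the values in each library were whole multiples of its smallest step, so reads were recovered; 0 columns lacked a sample.

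Columns were divided by their totals over the 25834 shared genes, which gives CPM, and scaled by median-of-ratios factors. Genes reaching 1 scaled CPM in 4 or more libraries (15734) entered a two-sided limma test (trend, robust, age as factor, all 12 libraries, no block) on log2(scaled CPM + 0.5), with Benjamini-Hochberg adjustment over all genes and 0.05 as threshold. This scale understates changes of low genes. On recovered reads edgeR called 5711 genes up and 5123 down from P0 to P14, against 5412 and 5436 by limma. In simulated data for P0 to P14 (15734 genes), 35.8% of 1.5-fold, 88.1% of 2-fold and 98.5% of 4-fold changes were recovered, with 15 false calls among 163. The simulation gave every gene the same dispersion and held no library like P14 replicate 2. It changed only 66 or 67 genes per size of change, far fewer than were called in the data, which affects the adjusted p. It therefore does not give the recovery for the members. A floor of 3 reads is 0.0893 to 0.227 CPM.

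Members and the 13 gene lists were chosen with earlier results of these data known. Genes were named by rule: the 5 C-types; per other class, the 2 with the highest mean and the largest rise and fall per comparison among called members without overlap between libraries; any member called against its class; and 2 genes per list with the smallest adjusted p from P0 to P14 (for marker lists only sums and counts are given, and 1 gene that the rule names is not reported here). Replicate numbers name different animals and pair none. Alternatives covered pseudocounts (0.1 and 2), filters, scalings, edgeR, DESeq2, 8 libraries only, a replicate block and left-out libraries; leaving out P14 replicates 2 and 4 together was chosen after seeing the data. Positions are RefSeq GRCm38.p6. Software was limma 3.58.1, DESeq2 1.42.0 and edgeR 4.0.16 in R 4.3.3, and Python 3.11.15, pandas 2.3.3 and matplotlib 3.10.9.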

Additional observations from a re-analysis of the deposited data

Results flagged for a closer look

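In 66 groups of 4 libraries of the named members, cluster sums and C-type shares, 3 had 1 library far from the other 3 by Dixon's criterion, which chance alone gives in about 1 of 20 groups. The C-type share of gamma reads at P14 was 34.4% in replicate 2 and 52.5 to 55.4% in the other 3 libraries. The beta cluster sum at P0 was 192 scaled CPM in replicate 1, a merged library, and 271 to 287 in the others. Pcdhb3 at P28 was at 5.26 scaled CPM in replicate 1 and 4.02 to 4.10 in the others, and without that library its rise from P14 missed the threshold (adjusted p = 0.0671).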

How the results depend on the processing

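The alternatives gave 3213 values for 129 comparisons of named genes. Of these, 3155 kept their side of the threshold, 17 lost the call and 40 gained one. Values called in neither fit count as kept, also where their sign changed. The other 1 was called with the opposite sign: Pcdhgc3 from P14 to P28 was 0.13 with all libraries (-0.59 to 0.49 leaving out 1 library). It was -0.88 (limma adjusted p = 0.00638) without both P14 replicates 2 and 4, where 2 members, both gamma C-types, fell. From P0 to P14 the number of members that rose was 0 with all libraries, 2 (1 beta, 1 gamma) with deposited values, and 1, a gamma gene, with edgeR, with DESeq2 and without P14 replicates 2 and 4. From P14 to P28, 1 member rose (a beta gene) at a mean of at least 5 scaled CPM and 0 with deposited values. That filter also left 5 alpha and 11 beta falls from P0 to P14 and 3 alpha falls from P0 to P28, since fewer members were tested. Deposited values moved the median of all genes by 0.47, -0.20 and 0.28 in the 3 comparisons.

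Leaving out 1 library gave 0 to 1 rises and 42 to 46 falls from P0 to P14, 1 to 4 rises from P14 to P28 (4 without P14 replicate 3, with 2 gamma genes; 1 without P28 replicate 1) and 39 to 44 falls from P0 to P28. Within these, beta rises from P14 to P28 ran from 1 to 2, gamma rises from 0 to 2 and gamma rises from P0 to P14 from 0 to 1 (1 without P14 replicate 2). A replicate block gave 0 rises and 44 falls from P0 to P14, 2 and 0 from P14 to P28, and 1 and 41 from P0 to P28. Same-numbered libraries correlated at -0.513 to 0.357 over 12 pairs, 3 of them above 0.1, and 2 of 12 libraries correlated best with their own number.

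The alternative of shares per base was not run, since lengths of the variable exons were not used here. Isoform shares of alpha and gamma therefore rest on the authors' unknown read assignment. With 4 libraries per age, 35.8% of simulated 1.5-fold changes were recovered, so small changes are not shown to be absent. That share was found with far fewer changed genes than were called in the data, so it is not the recovery in these data. For members that P14 replicate 2 moves, the recovery is not known, since no simulated library was like it. Members near 3 reads, such as Pcdhb1, cannot be compared.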
